A study of Mus musculus with 45 samples.

Results

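The genes described are 7 regulators of fuel choice in mouse tissue: the pyruvate dehydrogenase kinases Pdk1, Pdk2, Pdk3 and Pdk4, the angiopoietin-like protein gene Angptl4, the lipoprotein lipase gene Lpl and the fasting hormone gene Fgf21. They were picked by symbol, and all 7 were among the 22080 genes of the table. Pdk4 and Angptl4 had been seen to change in kidney before they were picked, so their diet differences in kidney are given as a description with no test. Lpl and Fgf21 are neither kinases nor angiopoietin-like genes and belong to the set by this choice of symbols.

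RNA came from liver, kidney and brain of male C57BL/6 mice, bought at 7 weeks of age and sampled on day 43 after 8 h without food. Control mice ate AIN-93, and the HCD group ate it with 0.5% cholesterol. The other groups ate the same 0.5% cholesterol diet with a 1% extract of the mushroom Ganoderma lucidum (HCD+Gl-1), with a 1% extract of mushrooms grown with 10 mM acetylsalicylic acid (HCD+Gl-2), or with 0.03% of the statin simvastatin by weight (HCD+Sim). Each of the 5 diet groups had 8 mice, and each of the 15 tissue and diet groups had 3 arrays named A, B and C. By the methods, A and B each pooled 4 mice and C was a mix of A and B, so 3 arrays stood for 2 separate pools. The p-values measured only the spread between arrays within groups, pooled for each gene over all 15 groups.

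Pyruvate dehydrogenase kinases switch off the mitochondrial enzyme complex that turns pyruvate into acetyl-CoA, which spares glucose carbon when fatty acids are burned. Pdk4 is the member of the family best known for rising in fasting, under the control of PPAR and FoxO factors and the glucocorticoid receptor. Angptl4 is a secreted inhibitor of lipoprotein lipase, the enzyme that frees fatty acids from circulating triglyceride, and it is a PPAR target too. Fgf21 is a hormone that the liver makes in fasting and under other nutrient stress. The proximal tubule of the kidney runs mainly on fatty acids.

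In the RefSeq annotation of GRCm38.p6, Pdk4 lies on chromosome 6 from 5483351 to 5496278 and was read by probe set 10543017. Angptl4 lies on chromosome 17 from 33774900 to 33781575 (probe set 10450038), and Lpl on chromosome 8 from 68880555 to 68906932 (probe set 10572130). Pdk1 lies on chromosome 2 from 71873215 to 71903858 (probe set 10472846), Pdk2 on chromosome 11 from 95026258 to 95041371 (probe set 10390103) and Pdk3 on chromosome X from 93764616 to 93832150 (probe set 10605711). Fgf21 lies on chromosome 7 from 45613890 to 45615490 (probe set 10563344). The probe sets read transcripts of these genes as a whole, and no splice form was told apart.

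The 250 bases before a RefSeq transcript start of Pdk4 and of Pdk1 are shown, since these were the kinases whose level differed between diets in liver. Both run 5′ to 3′ on the strand of the gene in GRCm38.p6, Pdk4 at chr6:5496279-5496528 on the minus strand and Pdk1 at chr2:71872974-71873223 on the plus strand. Capitals mark the CCAAT box (read as ATTGG on the opposite strand) and the GC box (GGGCGG), each searched on both strands.
Pdk4: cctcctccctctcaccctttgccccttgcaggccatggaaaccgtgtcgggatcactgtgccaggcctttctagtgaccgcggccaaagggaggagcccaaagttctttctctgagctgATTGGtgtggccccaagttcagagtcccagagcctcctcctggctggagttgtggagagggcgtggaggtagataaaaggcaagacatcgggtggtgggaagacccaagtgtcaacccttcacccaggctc
Pdk1: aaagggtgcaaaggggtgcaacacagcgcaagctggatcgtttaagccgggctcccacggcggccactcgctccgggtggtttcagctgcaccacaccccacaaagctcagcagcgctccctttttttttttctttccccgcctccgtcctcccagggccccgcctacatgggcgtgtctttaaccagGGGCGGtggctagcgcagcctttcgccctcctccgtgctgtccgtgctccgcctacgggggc
The Pdk4 window held 1 CCAAT box, on the opposite strand 131 to 127 bases before the start, a motif found in 33.8% of the 32851 windows of this length. The Pdk1 window held 1 GC box 62 to 57 bases before the start, a motif found in 32.7% of the windows. The PPAR response element (a direct repeat of the nuclear receptor site AGGTCA, which overlaps that site) had no match in the Pdk4 window and stood in 0.0335% of all windows. The same held for AGGTCA itself (14% of windows), the FoxO core GTAAACA (3.17%), the glucocorticoid response element (0.387%), the cAMP response element TGACGTCA (1.55%) and the TATA box TATAAA (12.4%), all searched on both strands.

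Values are log2 expression, so a difference of 1 is a 2-fold change, and levels of different genes cannot be set against each other because each probe set has its own brightness. A gene was called where the adjusted p of limma was at most 0.05 and the log2 difference was larger than 0.7 in size. In a pool of whole tissue, fewer cells of a type and less RNA per cell cannot be told apart. Array medians ran from 6.76 to 6.92, and the tissue markers fitted the labels: the mean of 6 hepatocyte markers was 13.25 to 13.34 in liver arrays, that of 7 kidney epithelium markers was 11.25 to 11.46 in kidney arrays, and that of 6 brain markers was 10.97 to 11.20 in brain arrays. Liver HCD+Sim arrays A and B stood apart. The mean of 9 pancreas acinar markers was 7.05 and 7.63 in them against 5.71 to 6.02 in the other 13 liver arrays, and the mean of 8 skeletal muscle markers was 7.40 and 7.82 against 6.16 to 6.98. Array C of that group read 5.99 and 6.49, below both, where an equal mix of A and B would lie between them. Values of named genes that rest on arrays A and B are given with and without them. Without them HCD+Sim is array C alone (n = 1), so only the size of a difference is given.

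Pdk4 group means spanned 1.1 across the 5 diets in kidney, 0.84 in liver and 0.14 in brain. Its kidney level was 8.47, 8.48 and 8.56 in Control arrays A, B and C and 7.82, 7.71 and 8.04 in the HCD arrays. It was 8.84, 8.76 and 9.25 with HCD+Gl-1, 8.63, 8.25 and 8.82 with HCD+Gl-2, and 8.84, 8.67 and 8.92 with HCD+Sim. The 3 HCD arrays lay below all other 12 kidney arrays. The HCD mean was 0.65 below Control (SE 0.17, n = 3 in each group), a 1.57-fold lower level. Against HCD, Pdk4 was 1.1 higher with HCD+Gl-1, 0.95 higher with HCD+Sim and 0.71 higher with HCD+Gl-2 (SE 0.17 for each), or 2.14-fold, 1.94-fold and 1.64-fold. HCD+Gl-1 and HCD+Sim also lay above Control with no overlap of arrays, by 0.45 and 0.30, while HCD+Gl-2 overlapped Control. All comparisons with HCD share its 3 arrays, and all those with Control share the Control arrays.

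Angptl4 in the kidney was also lowest on HCD, and it stayed below Control in 2 of the treated groups. Control arrays read 9.41, 9.49 and 9.29, and HCD arrays read 8.59, 8.57 and 8.73. The HCD+Gl-1 arrays read 9.19, 9.01 and 9.53, the HCD+Gl-2 arrays 9.0, 8.61 and 9.13, and the HCD+Sim arrays 9.0, 8.75 and 9.28. The HCD mean was 0.76 below Control (SE 0.13), 1.70-fold. Against HCD it was 0.61 higher with HCD+Gl-1 and 0.38 higher with HCD+Sim with no overlap, and 0.28 higher with HCD+Gl-2 with overlap. Every HCD+Gl-2 and HCD+Sim array stayed below the Control arrays, by 0.48 and 0.38 on the means, and HCD+Gl-1 overlapped Control at a mean difference of -0.15. In the 3 kidney groups fed a treatment, array B was the lowest and array C the highest for both Pdk4 and Angptl4.

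**Figure D1:**
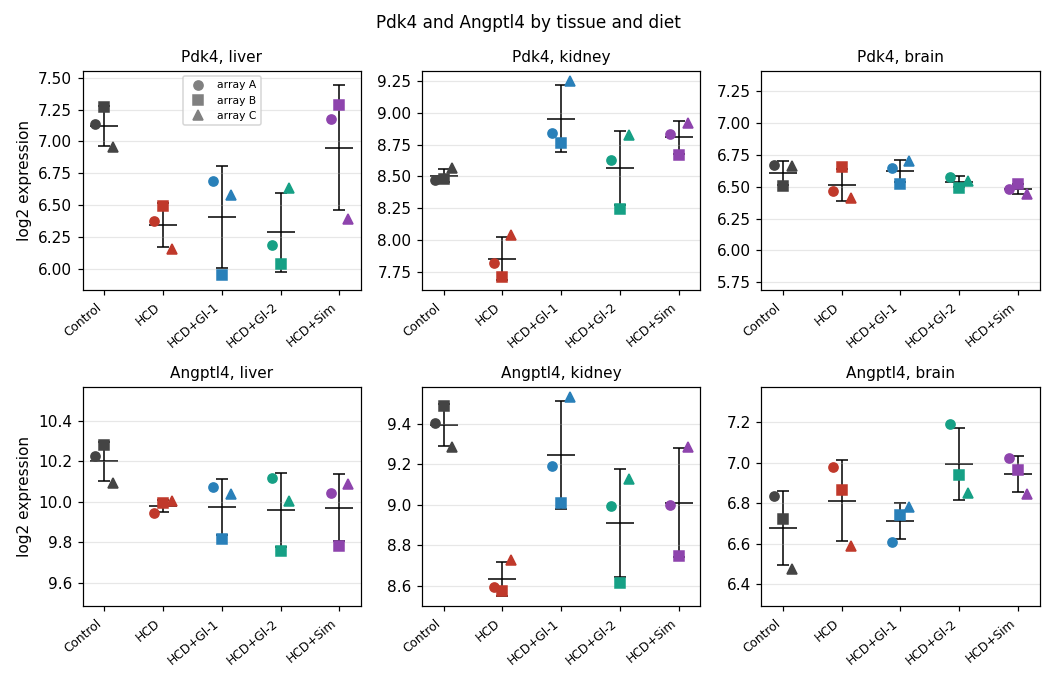
Log2 expression of Pdk4 and Angptl4 by tissue and diet: points are the arrays A, B and C of a group, the dash is the mean and the bar is the SD (n = 3); panels of a row have their own levels and the same height in log2 units. In kidney the 3 HCD arrays of Pdk4 lie below the other 12, and in liver Pdk4 is low on HCD, HCD+Gl-1 and HCD+Gl-2.

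Lpl in the kidney stood apart in HCD+Gl-1 alone: its arrays there read 11.84, 11.80 and 11.82, above all other 12 kidney arrays (11.32 to 11.61). The mean was 0.42 above HCD and 0.45 above Control (SE 0.11). Pdk1, Pdk2 and Pdk3, the other kinases, had kidney arrays over all 5 diets from 8.11 to 8.28, 11.72 to 11.95 and 9.37 to 9.71. Fgf21 read 5.54 to 5.88 in kidney, below the median of the arrays.

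Counted with the thresholds of the fit, 1 of the 7 genes was called in kidney HCD against Control, where 0.0408% of all genes were. Likewise 1 of 7 was called against HCD with HCD+Gl-1 (0.131% of all genes), with HCD+Gl-2 (0.335%) and with HCD+Sim (0.14%), and 0 with each of them against Control (0.00906%, 0.217% and 0.0317%) or between the extracts (0.181%). Arrays did not overlap for 4 of 7 genes on HCD against Control (13.2% of all genes), for 3, 1 and 3 with the treatments against HCD in the order above (13.8%, 20.4% and 16.7%), for 4, 3 and 2 with them against Control (11.9%, 18.3% and 15.3%) and for 1 between the extracts (16.6%). Since kidney changes chose Pdk4 and Angptl4, nothing is read from these counts. The Pdk4 difference of 0.71 between HCD+Gl-2 and HCD lay just inside the size limit of 0.7, and that of -0.65 between HCD and Control just outside it.

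Beside them in kidney, the skeletal muscle markers averaged 6.05 to 6.33 and the adipose markers 5.74 to 6.00 over all 15 arrays. For the muscle list, 0 of 8 genes had HCD arrays clear of the Control arrays in either direction, and for the adipose list 1 of 8 did, lower. Against HCD, the adipose markers had higher means for 8 of 8 genes with HCD+Gl-2 (3 with no overlap, median 0.16), for 7 of 8 with HCD+Gl-1 (0 with no overlap, median 0.04) and for 5 of 8 with HCD+Sim (0 with no overlap, median 0.02). The muscle markers were higher for 6, 5 and 2 of 8 in the same order. Their part in the kidney values was not tested.

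Around these genes in kidney, the fasting genes under PPAR control, a list of 20, were lower at the median on HCD than on Control and higher with each treatment than on HCD. The median of the list was -0.16 for HCD against Control and 0.30, 0.22 and 0.14 for the treatments against HCD, where the medians of all genes were -0.01, 0.01, 0.01 and 0.00. The members of the pyruvate dehydrogenase complex and its phosphatases, 8 genes on which the kinases act or which oppose them, had 0 past both thresholds in each kidney diet comparison. Dusp1, a phosphatase of MAP kinases on the glucocorticoid list, was 1.61 higher with HCD+Gl-2 than on HCD in kidney.

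The liver was not used to choose the genes and was tested. Pdk4 fell there on HCD and stayed low with both extracts. Control arrays read 7.14, 7.27 and 6.96 and HCD arrays 6.38, 6.49 and 6.15. The HCD+Gl-1 arrays read 6.69, 5.95 and 6.58 and the HCD+Gl-2 arrays 6.19, 6.04 and 6.63, while HCD+Sim read 7.18, 7.29 and 6.39. No array of HCD, HCD+Gl-1 or HCD+Gl-2 reached the lowest Control array. Pdk4 was lower than Control by 0.78 on HCD (SE 0.17, adjusted p = 0.00979, 1.72-fold), by 0.72 with HCD+Gl-1 (adjusted p = 0.0127) and by 0.84 with HCD+Gl-2 (adjusted p = 0.00243). Against HCD the extracts gave differences of 0.06 and -0.06 (SE 0.17, adjusted p = 0.906 and 0.944). The calls were lost in a model of the liver arrays only, where the adjusted p was 0.248, 0.192 and 0.105 in that order, and the last 2 also in a model of the compared groups only (adjusted p = 0.154 and 0.0563). Without Control array B it was 0.0788 for HCD and 0.0794 for HCD+Gl-1, without HCD array C 0.0812 for HCD, and without HCD+Gl-1 array B 0.0718 for HCD+Gl-1.

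With HCD+Sim, liver Pdk4 was 0.61 above HCD (SE 0.17, adjusted p = 0.0779), with overlapping arrays, and -0.17 from Control (adjusted p = 0.772). The value turned on the arrays that stood apart: it was 0.89 without HCD+Sim array C (adjusted p = 0.00161), and 0.05 on array C alone, without arrays A and B. On array C alone, the difference from Control was -0.74.

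Skeletal muscle, a tissue rich in Pdk4 transcripts, had markers that were, like Pdk4, higher in liver on Control than on HCD or with the extracts. The mean of the 8 muscle markers was 6.96, 6.98 and 6.78 on Control and 6.34, 6.61 and 6.36 on HCD. It was 6.16, 6.35 and 6.24 with HCD+Gl-1, 6.31, 6.49 and 6.41 with HCD+Gl-2, and 7.40, 7.82 and 6.49 with HCD+Sim. Within each extract group array B had the highest muscle mean and the lowest Pdk4. On Control, on HCD and with HCD+Sim, array B had the highest muscle mean and the highest Pdk4. Of the 8 markers, 8 had a lower mean on HCD than on Control and 5 did not overlap, at a median difference of -0.38. Against Control, 7 of 8 did not overlap and were lower with HCD+Gl-1 and 5 of 8 with HCD+Gl-2. Acta1, the actin of skeletal muscle fibres, read 8.36, 8.65 and 8.16 on Control and 7.32, 7.73 and 7.39 on HCD, and Myh1, a fast muscle myosin, read 6.66, 6.46 and 5.64 and then 5.03, 5.47 and 5.16. The part of muscle transcripts in the liver Pdk4 values was not tested.

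**Figure D2:**
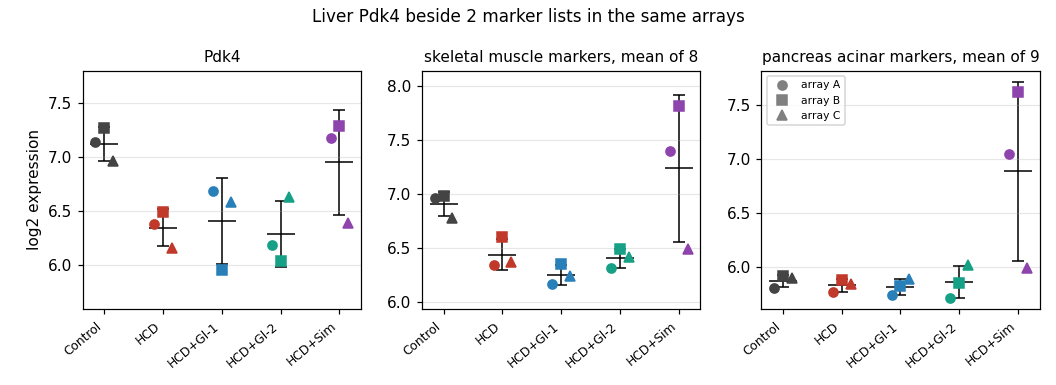
Log2 expression in the 15 liver arrays of Pdk4, the mean of 8 skeletal muscle markers and the mean of 9 pancreas acinar markers: points are arrays, the dash is the mean and the bar is the SD (n = 3), with panels of the same height in log2 units. The muscle mean is high in the Control arrays (6.78 to 6.98) and in HCD+Sim arrays A and B, as Pdk4 is, and the pancreas mean is high in HCD+Sim arrays A and B.

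Lpl went the other way in liver and rose on HCD. Adult hepatocytes carry little Lpl, and other cells of the tissue carry it as well. Control arrays read 8.23, 8.10 and 8.51, and HCD arrays read 8.92, 8.88 and 8.82. With HCD+Gl-1 Lpl read 8.77, 8.69 and 8.66, with HCD+Gl-2 8.72, 8.56 and 8.59, and with HCD+Sim 9.06, 8.96 and 9.01. All 12 arrays of mice on cholesterol lay above the 3 Control arrays. The difference from Control was 0.59 on HCD (SE 0.11, adjusted p = 0.00112), 0.43 with HCD+Gl-1 (adjusted p = 0.0184), 0.34 with HCD+Gl-2 (adjusted p = 0.0793) and 0.73 with HCD+Sim (adjusted p = 3.38e-05, 1.66-fold). HCD+Sim passed the size limit as well, and HCD did so without Control array C (0.71) and in the fit on pools A and B only. The HCD+Sim value was 0.73 on HCD+Sim array C alone, without arrays A and B, and 0.64 without Control array B (adjusted p = 0.00178), which is under the limit. In a model of the compared groups only its adjusted p was 0.0706. Both extract groups lay below HCD with no overlap, by 0.17 and 0.25, and neither difference passed the test (adjusted p = 0.482 and 0.310).

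Macrophages are a known source of Lpl, and their markers were lower on HCD than on Control, where Lpl was higher. The mean of 8 macrophage and Kupffer cell markers was 8.27 to 8.44 on Control and 8.07 to 8.10 on HCD, and all 8 were lower on HCD, 6 of them with no overlap. With HCD+Sim 4 of 8 were higher and 4 lower than on Control (median -0.01), and 7 of 8 were higher than on HCD, 4 with no overlap (median 0.30). Against HCD, 8 of 8 were higher with HCD+Gl-1 and 7 of 8 with HCD+Gl-2, 1 with no overlap in each. The 6 endothelium markers, for the cells whose surface holds the enzyme, had lower means with the extracts than on HCD, as Lpl had: 6 of 6 were lower with HCD+Gl-1 and with HCD+Gl-2, 3 with no overlap in each (medians -0.18 and -0.16). For HCD against Control, 4 of the 6 endothelium markers were higher and 2 lower (median 0.095). With HCD+Sim 4 were higher and 2 lower than on Control (median 0.07), and 4 higher and 2 lower than on HCD (median 0.02). The 8 adipose markers averaged 6.05 to 6.23 on Control and 6.04 to 6.05 on HCD. Against HCD, 7 of 8 adipose markers were lower with HCD+Gl-1 and 4 of 8 with HCD+Gl-2 (medians -0.16 and -0.02). With HCD+Sim 4 adipose markers were higher and 4 lower than on Control (median -0.01), and 7 were higher and 1 lower than on HCD (median 0.05). The part of these cells in the Lpl values was not tested.

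Pdk1 was the kinase that differed between HCD and each treatment in liver. It read 9.32, 9.31 and 9.07 on Control and 9.58, 9.63 and 9.39 on HCD. It read 9.26, 9.10 and 9.26 with HCD+Gl-1, 9.18, 9.06 and 9.13 with HCD+Gl-2, and 9.13, 9.03 and 9.13 with HCD+Sim. All 3 HCD arrays lay above the other 12 liver arrays. Against HCD, Pdk1 fell by 0.32 with HCD+Gl-1 (SE 0.08, adjusted p = 0.0321), by 0.41 with HCD+Gl-2 (adjusted p = 0.00469) and by 0.43 with HCD+Sim (adjusted p = 0.00404). These differences were smaller than the size limit of 0.7, and in a model of the liver arrays only the adjusted p was 0.234, 0.102 and 0.129. The HCD+Gl-1 value kept an adjusted p under 0.05 (0.0221) only when HCD array C was the array left out. On liver HCD+Sim array C alone, without arrays A and B, the HCD+Sim difference was -0.40. HCD was 0.30 above Control (adjusted p = 0.0666), and the treatment means were 0.02 to 0.13 below Control (adjusted p = 0.589 to 0.930).

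The remaining members gave no call in a liver diet comparison. Fgf21 read 6.27, 6.48 and 6.11 on Control and 5.88, 5.88 and 5.83 on HCD, a difference of -0.42 with no overlap that did not pass the test (SE 0.14, adjusted p = 0.141). Its treatment arrays spread from 5.83 to 6.71, so all liver values were below the array medians. Angptl4 read 10.23, 10.28 and 10.09 on Control and 9.95, 9.99 and 10.00 on HCD, and all 4 cholesterol groups had means 0.22 to 0.24 below Control (adjusted p = 0.385 to 0.622). Pdk2, the most widely expressed kinase of the family, read 10.80 to 11.33 in liver. Pdk3 read 4.59 to 5.62 there, under the array medians and with a pooled SD of 0.35 within groups.

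Counted over the 7 genes, 1 was called on HCD against Control in liver (0.245% of all genes), and against Control 1 was called with HCD+Gl-1 (0.322%), 1 with HCD+Gl-2 (0.584%) and 1 with HCD+Sim (0.358%). By limma, 0 were called against HCD with the 3 treatments in the order above (0.163%, 0.303% and 0.258% of all genes), where 2, 3 and 2 had an unadjusted p under 0.05. Limma with a trend and robust moderation also called 0. Without HCD+Sim arrays A and B that group is array C alone, so no calls are counted for it. By the adjusted p alone 1 gene, Pdk1, passed in each of these 3 comparisons with HCD, where 2.48%, 1.7% and 1.1% of all genes did. Against Control 2, 2, 1 and 1 passed that way, on HCD and with the treatments in the same order (1.34%, 3.58%, 2.86% and 1.54%). Arrays did not overlap for 5, 3, 3 and 2 genes in these comparisons with Control (14.9%, 15.9%, 15.7% and 13.2% of all genes), and for 2, 3 and 3 in those with HCD (14.7%, 15.2% and 13.4%). The median over the 7 genes was 0.02 for HCD against Control, beside -0.01 over all genes.

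**Figure D3:**
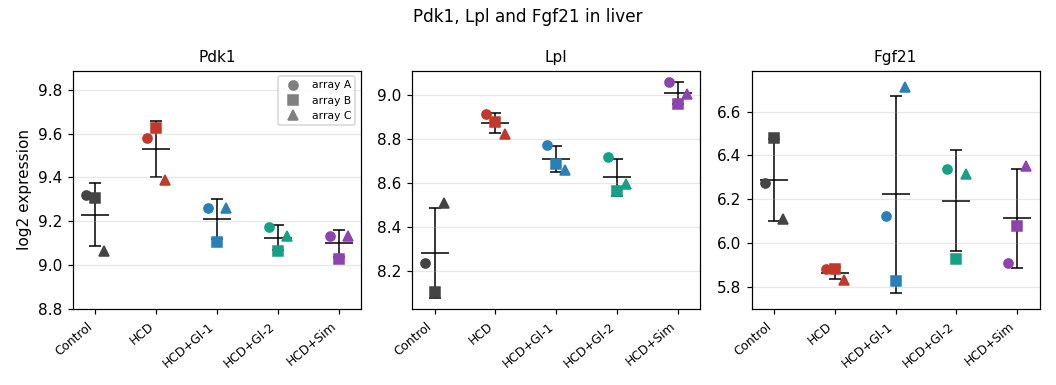
Log2 expression of Pdk1, Lpl and Fgf21 in liver by diet: points are arrays, the dash is the mean and the bar is the SD (n = 3), with panels of the same height in log2 units. The 3 HCD arrays of Pdk1 lie above the other 12, the 3 Control arrays of Lpl lie below the other 12, and the arrays of Fgf21 are closest together on HCD.

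The extracts were also compared with each other. In liver 0 of 7 genes was called between HCD+Gl-2 and HCD+Gl-1 by limma, or by limma with a trend and robust moderation, where 0.172% of all genes were, and 1 had an unadjusted p under 0.05 (Pdk2, 0.25 higher with HCD+Gl-2, SE 0.10, adjusted p = 0.148, the 1 gene with no overlap, beside 15.1% of all genes). Pdk4 differed by -0.12 (SE 0.17, adjusted p = 0.756) and Pdk1 by -0.08 (SE 0.08, adjusted p = 0.632). In kidney, HCD+Gl-2 was below HCD+Gl-1 by 0.39 for Pdk4 and 0.33 for Angptl4, with overlap, and by 0.38 for Lpl, with no overlap.

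Around these genes in liver, the list of pyruvate and lactate handling had 1 of 12 called on HCD, lower: Slc16a1, the lactate and ketone carrier MCT1, by 0.74 (SE 0.11, adjusted p = 8.15e-05). Me1, the cytosolic malic enzyme that feeds NADPH to lipid synthesis, fell against HCD by 1.09 with HCD+Gl-2 (adjusted p = 3.40e-06) and by 0.78 with HCD+Sim (adjusted p = 0.000685). The HCD+Sim fall was 1.02 on array C alone, without arrays A and B. The 12 receptors and cofactors upstream had 0 called on HCD by limma, and Pparg, the PPAR of fat storage, passed by adjusted p alone (0.65 higher, adjusted p = 3.56e-05).

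Among the 17 genes of lipoprotein lipase control and fatty acid uptake, Cd36, a fatty acid carrier of the membrane, was 0.64 higher on HCD (SE 0.10, adjusted p = 0.000232) and 0.73 higher with HCD+Sim (adjusted p = 1.73e-05) than on Control. On HCD+Sim array C alone, without arrays A and B, the latter was 0.69, under the size limit. Vldlr, a lipoprotein receptor, was 0.43 higher on HCD (adjusted p = 0.0112), and Plin2, a lipid droplet coat protein, was 0.45 lower (adjusted p = 0.0226). Gm6484, listed by RefSeq as an older symbol of Angptl8, a feeding-linked member of the angiopoietin-like family, was 1.13 higher with HCD+Gl-2 than with HCD+Gl-1 (SE 0.19, adjusted p = 0.000702). Its HCD+Gl-2 arrays read 10.41, 9.18 and 10.78, so array B stood low. The list had 0 called on HCD by limma, and its median was 0.07.

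Of the 11 glucocorticoid targets, Mt1 and Mt2, metallothioneins that also answer to metals, fell on HCD by 0.79 and 1.02 (adjusted p = 5.98e-06 and 0.000185). Against HCD they rose by 0.83 and 1.19 with HCD+Gl-1, by 1.47 and 2.11 with HCD+Gl-2 and by 1.21 and 1.72 with HCD+Sim, each with an adjusted p of 1.97e-05 or less. On HCD+Sim array C alone, without arrays A and B, the last pair was 1.17 and 1.73. The 20 PPAR targets of fasting had 0 called on HCD by limma, and Cpt1a, the gate of mitochondrial fatty acid entry, was 0.38 lower (adjusted p = 0.00291). The 8 genes of the pyruvate dehydrogenase complex, the 13 of the Fgf21 axis and the 12 insulin and FoxO targets had 0 called on HCD in liver, with 0 past the adjusted p alone in each list.

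In brain 0 of the 7 genes passed both thresholds. Pdk4 read 6.42 to 6.70 over all 15 brain arrays, Angptl4 6.48 to 7.19, Lpl 6.44 to 7.13 and Fgf21 5.32 to 5.77. By limma, and by limma with a trend and robust moderation, 0 of 7 genes was called in each of the 8 brain comparisons. Of all genes, 0.0317% were called on HCD against Control, 0.00906%, 0.0226% and 0% with the treatments against HCD in the order used above, 0.00453%, 0.186% and 0.00906% with them against Control, and 0.00906% between the extracts. Of 56 brain values tested, 9 had an unadjusted p under 0.05. Pdk2 passed the adjusted p in 1 of them, at -0.37 for HCD+Gl-2 against Control (SE 0.10, adjusted p = 0.0491), where 1.47% of all genes passed. In a model of the brain arrays only its adjusted p was 0.206. Its arrays overlapped: 11.03, 11.14 and 10.66 on Control and 10.70, 10.67 and 10.35 with HCD+Gl-2.

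The difference between the liver and the brain response was tested too. Pdk1 passed for HCD+Gl-2 against HCD, at -0.49 (SE 0.12, adjusted p = 0.0426), where 0.598% of all genes passed: it was 0.41 lower in liver and 0.08 higher in brain. By limma 0 of 7 passed for HCD against Control, HCD+Gl-1 against HCD and HCD+Sim against HCD (0.326%, 0.362% and 0.0996% of all genes). The liver Pdk4 fall on HCD was not shown to differ from the brain value (-0.68, SE 0.24, adjusted p = 0.301), nor was the Lpl rise (0.61, SE 0.15, adjusted p = 0.0645).

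On the Control diet the tissues were compared for each gene. On Control, kidney Pdk3 was 4.34 above liver (SE 0.17, adjusted p = 3.53e-24) and kidney Lpl 3.09 above liver (SE 0.11, adjusted p = 2.10e-25, 8.52-fold). Kidney was also above liver for Pdk4 by 1.38 (adjusted p = 8.72e-09) and Pdk2 by 0.91 (adjusted p = 3.60e-10), and below it by 1.1 for Pdk1 (adjusted p = 2.09e-14) and 0.81 for Angptl4 (adjusted p = 2.35e-06). In all, 6 of 7 were called between kidney and liver, where 16.8% of all genes were. Liver Pdk3 was dim, with 15.0% of genes at a lower liver mean, so the size of its differences from liver is uncertain. Fgf21 was 0.62 lower in kidney (adjusted p = 0.000237), under the size limit.

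Brain was the lowest tissue for Angptl4, at 3.52 below liver (SE 0.13, adjusted p = 1.16e-24, 11.5-fold) and 2.72 below kidney. Brain Lpl was 4.62 below kidney (adjusted p = 1.65e-31, 24.6-fold) and 1.53 below liver. Brain Pdk4 was 1.9 below kidney (adjusted p = 1.56e-12) and 0.51 below liver (adjusted p = 0.00875). Brain Pdk3 lay between the other tissues, 3.19 above liver and 1.16 below kidney. Of 7 genes, 5 were called between brain and liver (32.7% of all genes) and 5 between brain and kidney (30% of all genes).

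The order of tissues on Control was thus kidney, liver, brain for Pdk4 and Lpl, liver, kidney, brain for Pdk1 and Angptl4, and kidney, brain, liver for Pdk3. For Pdk4 the order of liver and brain held on Control, whose liver arrays had higher muscle markers than those of HCD and the extracts: liver means were 6.34, 6.40 and 6.28 on HCD, HCD+Gl-1 and HCD+Gl-2, below the brain means of 6.51, 6.62 and 6.54, a difference that was not tested. For Pdk2 kidney was highest and liver and brain did not differ beyond their spread (-0.04, SE 0.10, adjusted p = 0.745). For Fgf21 liver was highest, and kidney and brain differed by 0.12 (SE 0.14, adjusted p = 0.479). Pdk1 in brain was 0.26 below kidney with overlapping arrays (adjusted p = 0.00815), under the size limit.

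**Figure D4:**
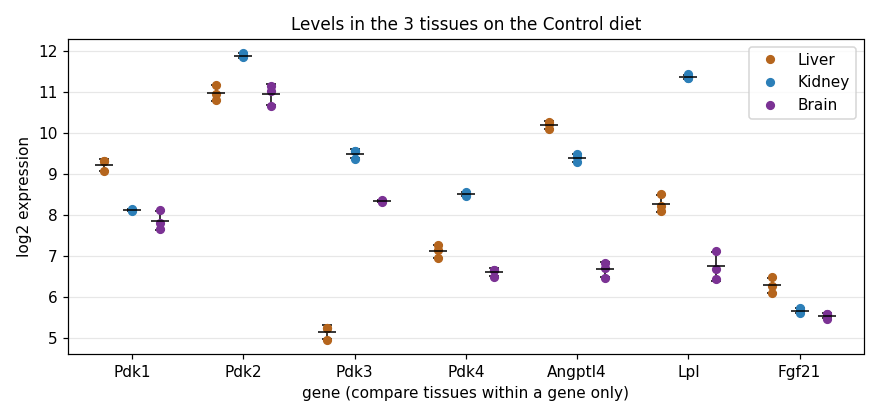
Log2 expression of the 7 genes in liver, kidney and brain on the Control diet: points are the 3 arrays of a tissue, the dash is the mean and the bar is the SD (n = 3). Tissues can be compared within a gene only, and Pdk3 is lowest in liver, Lpl and Pdk4 are highest in kidney and Angptl4 is lowest in brain.

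Likeness between genes was described over the 15 group means after the mean of each tissue was subtracted. These points share arrays, so the values of r carry no p. They include the kidney means, whose changes chose Pdk4 and Angptl4, so nothing is read from the r between these genes. Pdk4 and Angptl4 had r = 0.54, close to the value of 0.55 for Pdk1 and Pdk3, and the remaining 19 pairs of the 7 genes lay between -0.58 and 0.31. Over all genes with a usable symbol, the 5 most like Pdk4 were Fry (0.88), Aldh9a1 (0.86), Mir302d (0.86), Emr4 (0.84) and Gm10283 (0.84). Those most like Angptl4 were Wt1 (0.87), Bend3 (0.86), Galr1 (0.81), Gzmd (0.81) and Arhgap11a (0.80). Their changes were smaller: kidney Fry went from 7.18 on Control to 7.10 on HCD and 7.25 with HCD+Gl-1, and kidney Wt1 from 7.29 to 7.05 and 7.25. Mir302d, Gm10283 and Gzmd were dim, with kidney and liver group means from 3.29 to 3.88, far below the array medians.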

How the data were processed

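Total RNA pools were hybridised to 45 Affymetrix Mouse Gene ST 1.0 arrays. The authors corrected the signals with RMA, normalized them by quantiles with oligo, adjusted them for batch by ComBat, kept 1 probe set per gene by interquartile range, and deposited log2 values. The batches given to ComBat and the tool versions were not given in the sources used here, and values after ComBat can carry less spread than the signals had. Groups came from the labels.

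Limma 3.58.1 in R 4.3.3 estimated 15 group means over the 45 arrays (residual degrees of freedom 30, prior 7.34), with Benjamini-Hochberg adjustment over 22080 genes within each comparison. Called genes had an adjusted p of at most 0.05 and an absolute log2 difference over 0.7, and members were read against the share of all genes called. The response difference between liver and brain used the adjusted p alone. The fit was tested on simulated data with independent arrays and the same SD for a gene in every tissue. That test did not cover array C as a mix of A and B, or a spread that differs between tissues. With 3 arrays a group, 0.1 is the smallest two-sided p of an exact permutation test. The number of arrays limits the precision. The members and lists were chosen with earlier results of these data known. The named genes are the 7 members, genes of the fixed lists that passed a threshold (some are not reported here), and the 5 genes most like Pdk4 and Angptl4. Sequences were taken from RefSeq tables of GRCm38.p6, which list windows for Pdk1, Pdk2, Pdk3, Pdk4 and Fgf21. The alternatives were a fit on the tissue or the compared groups alone, pools A and B only, quantile normalization again within a tissue, trend and robust moderation, the pool letter as a block, dim genes left out, no size limit, each array left out and, chosen after seeing the data, liver HCD+Sim arrays A and B left out.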

Additional observations from a re-analysis of the deposited data

Results flagged for a closer look

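The response of Pdk1 to HCD+Gl-2 against HCD differed between liver and brain by -0.49 (SE 0.12, limma adjusted p = 0.0426), and the adjusted p was over 0.05 (0.0531 to 0.157) when 1 of the 12 arrays was left out, except for liver HCD array C (0.0253) and brain HCD+Gl-2 array B (0.0371).

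The Lpl differences between HCD+Gl-1 and HCD had opposite signs between tissues, with no overlap of arrays in each tissue: the liver value was -0.17, the kidney value 0.42 and the brain value 0.21. The liver and brain values did not pass the test (adjusted p = 0.482 and 0.913), and the kidney value was not tested. The difference between liver and brain did not pass either (-0.38, SE 0.15, adjusted p = 0.306), and the difference between liver and kidney was not tested.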

How the results depend on the processing

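The 4 diet values called in liver kept their direction under all 15 alternatives run on each, and kept their call under 11 for Pdk4 on HCD against Control, 10 with HCD+Gl-1, 12 with HCD+Gl-2, and 13 for Lpl with HCD+Sim. For Lpl with HCD+Sim these include a fit with array C alone in that group. Counts of called genes among the 7 moved as follows, and those in kidney describe values that chose the genes and say nothing of stability. With no size limit, 2 passed for liver HCD and HCD+Gl-1 against Control and for kidney HCD+Gl-1 against HCD, and 1 for each treatment against HCD in liver and for brain HCD+Gl-2 against Control. In the fit on 1 tissue, 0 were called for liver HCD, HCD+Gl-1 and HCD+Gl-2 against Control and for kidney HCD against Control, and quantile normalization again within the tissue gave 0 for these 4 and for kidney HCD+Gl-2 against HCD. In the fit on the compared groups alone, 0 were called for each treatment against Control in liver and for kidney HCD+Gl-2 against HCD. With pools A and B only, 2 were called for liver HCD against Control, 1 for liver HCD+Sim against HCD, 0 for kidney HCD+Gl-2 against HCD, and 1, 0 and 1 for the liver and brain response difference to HCD, HCD+Gl-2 and HCD+Sim. Trend and robust moderation gave 1 for the response difference to HCD. The cause of these moves was not tested.

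Leaving out each array in turn gave 0 to 2 called for liver HCD against Control, 0 to 1 for liver HCD+Gl-1 and HCD+Sim against Control and liver HCD+Sim against HCD, 1 to 2 for kidney HCD+Gl-1 against HCD, 0 to 1 for kidney HCD+Gl-2 against HCD, and 0 to 1 for the response differences to HCD and to HCD+Gl-2. Kidney Pdk4 with HCD+Gl-2 against HCD ran from 0.58 to 0.87 when 1 array was left out.

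The pool letters did not pair the arrays in most pairs of groups: of 30 pairs within a tissue, 3 had every same-letter correlation over 0.1. The same-letter correlations ranged from -0.382 to 0.421. In liver every correlation for letter A was positive, from 0.0518 to 0.223. With the letter as a replicate block, 1 gene was called for liver HCD against Control, as without it. Of 217 values, 0 were marked as changed. The kidney values among them have no call and were compared by the size of the difference only. Each group holds each letter once, so the block cannot move a difference, and the count shows nothing for kidney. Array C lay between A and B in 33 of 105 sets of the 7 genes, beside 28.3% over all genes, so the values did not show C to be a mix of A and B. Fgf21, Pdk3 in liver, and Pdk4 in brain and in liver on HCD, HCD+Gl-1 and HCD+Gl-2, were below the array medians, which limits what their values can show.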
